A study of Drosophila melanogaster with 12 samples.

Results

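Of 5209 measured Drosophila melanogaster genes known only by a CG number, 94 were bright in testes of control males and dim in testes of 3 mutants whose germ cells stop before the meiotic divisions. Members were chosen on measured values: the mean intensity over 3 arrays had to be at most 60 in bam, at most 100 in aly, at most 100 in sa and at least 500 in yw. The 94 genes are 1.80% of the CG genes, and the same limits take 33 of the 6773 measured genes that carry another symbol, or 0.487%. RefSeq's Release 6 annotation lists all 94 as protein coding. A CG number is the label a fly gene keeps until it is given a name, so no function is assigned to any of them here.

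Whole testes were taken from males 1 day old and their transcripts measured on 12 Affymetrix arrays, 3 biological replicates for each of 4 genotypes, each RNA drawn from a pool of testes. The genotypes were bam1/bamΔ86 (bam), aly2/aly5P (aly), sa1/sa2 (sa) and y,w (yw), the last serving as the control and itself carrying marker mutations. Each mutant is 1 combination of alleles, so the mutation and the strain background cannot be told apart. The sa transcript read 112, 112 and 96.2 in the sa arrays against 1518, 1179 and 1515 in yw. The bam transcript read 1174, 1094 and 948 in the bam arrays and at most 67.2 in yw, and the aly transcript 132, 134 and 148 in the aly arrays and at most 89.4 in yw, so neither probe set shows a loss of its transcript. The median intensity of all probe sets was 44.9 to 57.2 per array, highest in the 3 sa arrays.

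Male germ cells of the fly divide as spermatogonia, grow as primary spermatocytes with a large transcription programme, pass through meiosis and elongate into sperm. Testes lacking bam fill with spermatogonia that go on dividing. Testes lacking aly or sa hold spermatocytes that never enter the meiotic divisions: aly encodes a subunit of tMAC, the testis form of a chromatin complex, and sa encodes a testis version of a TAF, a subunit of the general transcription factor TFIID. Both complexes are needed in spermatocytes for many genes of sperm formation, and tMAC mutants are known to lose a wider set than testis TAF mutants. Because yw testes hold spermatids and the mutants do not, loss of a stage and loss of a regulator cannot be told apart for these genes. In whole testes, fewer cells of a type and less RNA per cell cannot be told apart either.

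Among CG genes bright in yw, the limits were taken in the order bam, aly and sa, and the loss at each step depends on that order. Of the CG genes, 1699 reached 500 in yw, 925 of these stayed within the bam limit, 621 of those also stayed within the aly limit, and 94 also stayed within the sa limit. The 527 genes that met the other 3 limits and missed the sa limit had a median sa mean of 421, with 119 above 1000 and the highest, CG9016, at 5635. The bam limit alone kept out 4 genes, the aly limit alone 6 and the yw limit alone 1618. The uncharacterised genes that reached 500 in yw and were dim in bam and aly testes were thus mostly above 100 in sa testes, and the 94 are the remainder of those 621. On the sa limit the nearest genes inside were CG32811 at 99.6 and CG5024 at 98.7, and the nearest outside were CG10996 at 101 and CG31693 at 102. In all, 100 of the 527 genes outside had sa means of at most 200, so this limit cuts through a continuous range. The bam limit had CG30002 at 56.6 and CG14635 at 56.0 inside, with CG9449 at 64.2 and CG43062 at 69.9 outside. The aly limit had CG30002 at 90.3 and CG13946 at 82.6 inside, with CG17917 at 110 and CG31952 at 118 outside. At the yw limit, CG32391 at 502 and CG13474 at 507 lay inside, whereas CG8260 at 477 and CG43321 at 472 lay outside.

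The brightest member, CG10317, read 7892, 6355 and 7030 in the yw arrays. Its bam arrays read 28.0, 26.4 and 36.2, its aly arrays 28.9, 35.8 and 34.6, and its sa arrays 165, 63.7 and 52.2. Its yw mean was 7092 ± 770 (SD, n = 3), 154-fold above bam, 145-fold above aly and 71.2-fold above sa on the log2(intensity + 16) scale, which understates the change of dim genes. CG5024 came next, with 4839, 4789 and 5491 in yw. Its mutant arrays lay at 15.0, 17.9 and 21.3 in bam, at 22.6, 33.5 and 28.6 in aly, and at 176, 75.7 and 44.4 in sa. The 176 was the highest value of any member in any mutant array, and still lay far below the lowest yw array of that gene.

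CG18132 had a yw mean of 3460 ± 710 (SD, n = 3), from arrays at 4076, 2683 and 3621. CG31730 followed with 3288 ± 237 and CG32117 with 3066 ± 342 (SD, n = 3). These 3 genes stood between 17.6 and 25.5 in the 6 bam and aly arrays, close to the 10th percentile of each array, which was at most 18.5. CG14071, CG42841, CG14676, CG18171, CG13473, CG11333 and CG3544 completed the 12 brightest, with yw means from 2882 down to 2550. The probe set of CG42841 is of a type that can read more than 1 transcript, so its value may include a related sequence. In sa, these 12 genes ranged from 42.1 ± 10.3 for CG18171 to 98.7 ± 68.7 for CG5024 (SD, n = 3).

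Over all 94 genes the yw mean ran from 502 to 7092 with a median of 1224, and 37 genes lay between 500 and 1000, 36 between 1000 and 2000, and 21 at 2000 or more. The medians of the means were 24.3 in bam, 28.3 in aly and 59.7 in sa. The difference yw minus bam had a median of 5.01 on the log2 scale and ran from 3.21 in CG30002 to 7.27 in CG10317. For yw minus aly the median was 4.86, from 2.63 in CG2772 to 7.18 in CG10317. For yw minus sa it was 4.15, from 2.20 in CG13474 to 6.15 in CG10317. Over all 11982 genes the corresponding medians were -0.18, -0.15 and -0.08. These 3 differences share the yw arrays and were fixed in direction by the choice of members, so they carry no test. In all 94 genes the lowest yw array lay above each of the 9 mutant arrays, which held for 15.5% of all genes; the limits favour this outcome and nothing is read from it. The lowest yw array was 13.9 times the highest mutant array at the median, and the closest approach was a ratio of 1.86 in CG31817.

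**Figure D1:**
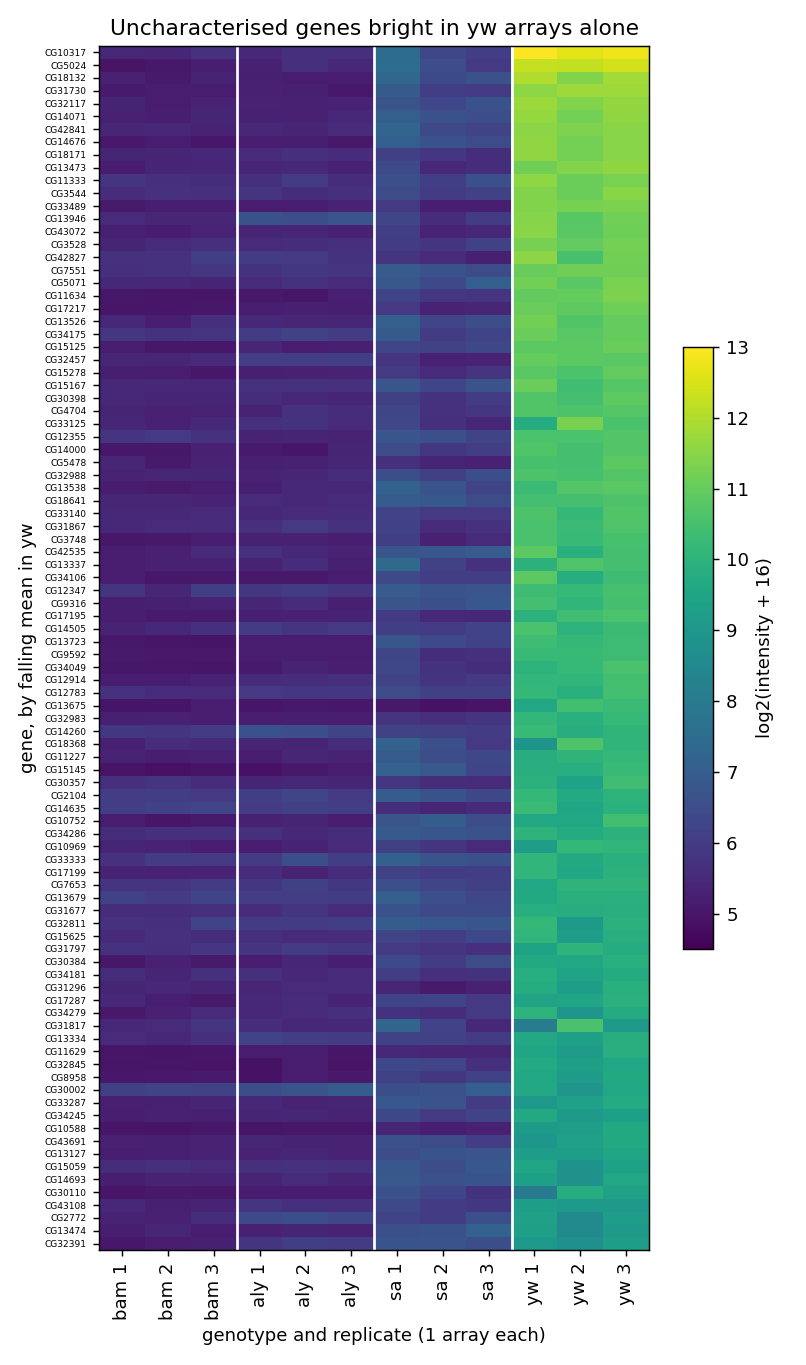
Intensity of each of the 94 genes (rows, by falling yw mean) in each of the 12 arrays (columns), as log2(intensity + 16). The 3 yw columns are bright in every row, and among the mutant columns sa replicate 1 is the brightest for 74 of the 94 genes when the sa arrays are compared.

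**Figure D2:**
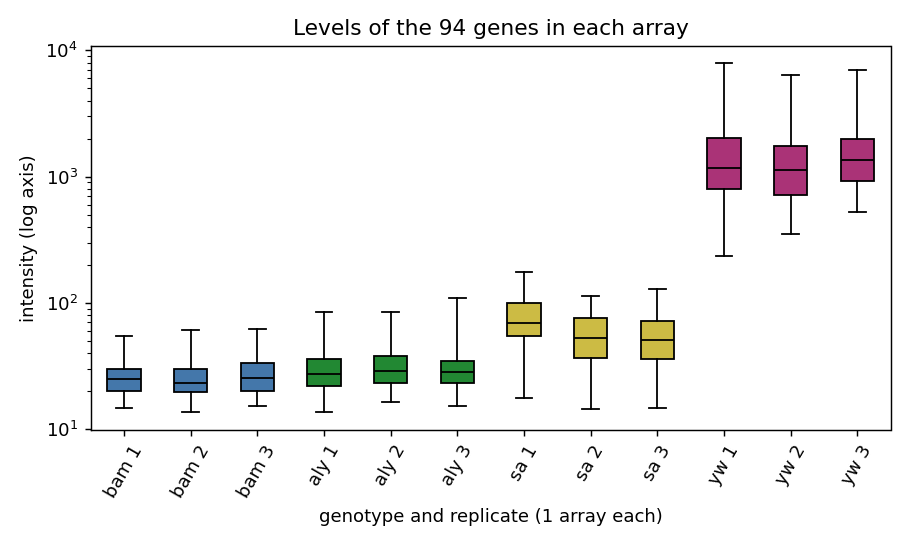
Intensity of the 94 genes in each array on a log axis, with boxes from the first to the third quartile, a line at the median and whiskers to the lowest and highest gene. The bam medians ran from 23.2 to 25.2 and the aly medians from 27.2 to 28.9. Those of sa spanned 50.5 to 69.4, and those of yw 1138 to 1358.

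The signal left in the arrested testes was mostly higher in sa than in aly on the deposited scale. The sa mean exceeded the aly mean in 85 of 94 genes, or 90.4%, compared with 41.2% of all genes. It also compared with 23.0% of the 3162 genes that met the 3 mutant limits but stayed at or below 100 in yw, called dim genes here. The aly and sa limits were equal, so the choice of members set no direction between them. It did use and bound both means, so the values, calls and counts of sa against aly are descriptions of the members, and nothing beyond them is supported by the shares beside them. The median difference sa minus aly was 0.67 on the log2 scale in the 94 genes, -0.13 in the dim genes and -0.10 in all genes. All 3 sa arrays lay above all 3 aly arrays in 69 of the 94 genes, against 25.7% of all genes, and below them in 4, against 40.7%. The array medians in the box plot show the same ordering, with each sa array above each aly array.

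By limma with Benjamini-Hochberg adjustment over all 11982 genes (adjusted p under 0.05 and a fold of at least 2), 33 of the 94 genes were called higher in sa than in aly and 0 lower. That is 35.1% of them, beside 11.9% of all genes called higher and 7.90% called lower. Without the fold minimum, 63 passed as higher and 4 as lower, beside 22.7% and 30.1% of all genes, and at an unadjusted p under 0.05 the limma counts were 68 and 4. Among dim genes 32 of 3162 were called higher (1.01%) and 10 lower (0.316%). The folds of the called members ran from 2.03 to 3.31, and the sa limit of 100 bounds them from above. They were spread over the brightness range: 9 of the 21 genes at 2000 or more in yw were called, 12 of the 36 between 1000 and 2000, and 12 of the 37 below 1000.

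The largest difference was in CG15145, which read 13.9, 17.6 and 20.5 in aly and 128, 102 and 62.3 in sa. Its difference was 1.73 ± 0.20 on the log2 scale (SE), and its arrays did not overlap. CG14676 read 19.4, 20.9 and 18.2 in aly and 117, 83.0 and 72.4 in sa, a difference of 1.57 ± 0.14 (SE). The same difference of 1.57 was found in CG18132, with 22.2, 20.5 and 19.7 in aly and 142, 68.1 and 82.2 in sa. In each of these genes the aly arrays sat at the level of the bam arrays, while the sa arrays sat several fold above.

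CG10752, CG13474 and CG14071 followed, with differences of 1.48, 1.46 and 1.39. CG13474 is the member in which sa came nearest to yw, with 79.1, 84.3 and 128 in sa against 622, 363 and 536 in yw. Its sa mean was 19.2% of its yw mean. Across the 94 genes the sa mean was 1.12 to 19.2% of the yw mean, with a median of 4.32%. The limits of 100 in sa and 500 in yw hold this share low in every member by construction.

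**Figure D3:**
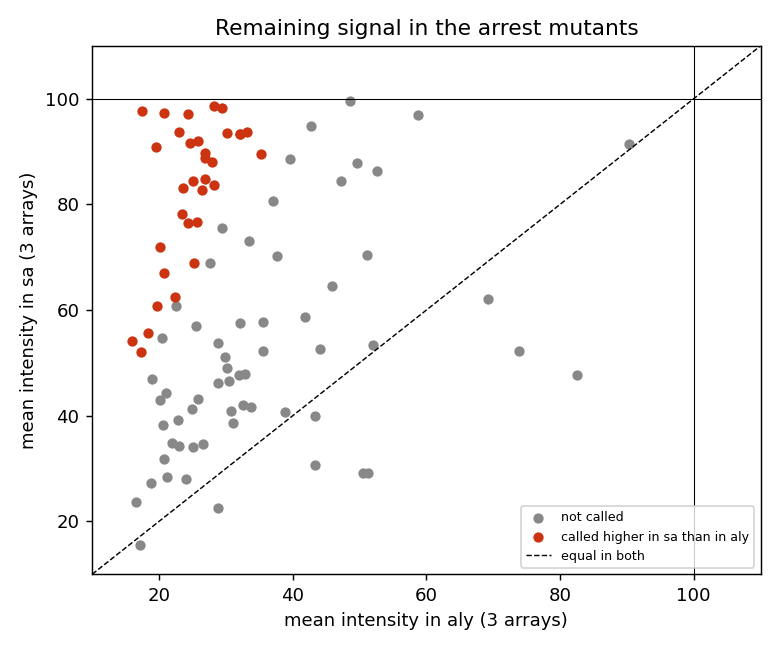
Mean intensity in sa against mean intensity in aly (3 arrays each) for the 94 genes, with red points for the 33 genes called higher in sa, a dashed line where both are equal and thin lines at the selection limits of 100. Of the 94 points, 85 lie above the dashed line. The called genes lie at low aly means, where alone the sa limit of 100 leaves room for a fold of at least 2. Their position is therefore set by the choice of members.

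The sa mean was below the aly mean in 9 genes, from CG13675 at an aly mean of 17.2 to CG13946 at 82.6, and 4 of these passed the adjusted p without reaching a fold of 2. CG13946 read 81.0, 76.0 and 90.7 in aly and 62.3, 31.9 and 49.2 in sa, a difference of -0.65 ± 0.19 on the log2 scale (SE). CG32457 had an aly mean of 50.5 ± 0.533 and a sa mean of 29.1 ± 10.1 (SD, n = 3). CG14635 differed by -0.57 and CG14260 by -0.39. CG14635 also stood at 56.0 ± 6.09 in bam (SD, n = 3), the second highest of the 94 there, with all 3 bam arrays at or above 49.7. CG32457 was named after its values were seen; the other 3 are also among the 3 highest members in aly or bam.

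The bam limit was lower than the aly and sa limits, so the rule itself favours aly and sa means above bam, and the following values are a description only. The aly mean was the higher in 82 genes, but all 3 aly arrays lay above all 3 bam arrays in 34, against 36.2% of all genes, and below them in 2, against 33.5%. The median difference aly minus bam was 0.10 on the log2 scale, beside 0.05 in dim genes. In sa minus bam the median was 0.81, beside -0.08 in dim genes. All 3 sa arrays lay above all 3 bam arrays in 79 genes, against 33.3% of all genes, and below in 1, against 42.7%. The order bam below aly below sa held in 74 genes by their means. No share of all genes is given for this count or for the 82, so no graded series is read from them. The highest members in bam were CG30002, CG14635 and CG13679 (53.6 ± 5.38, SD, n = 3), in aly CG30002, CG13946 and CG14260 (73.8 ± 12.7), and in sa CG32811, CG5024 and CG42535 (98.2 ± 6.68). CG30002 led in bam and in aly.

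The size of the remaining sa signal depended on the array. Replicate 1 was the brightest sa array in 74 of the 94 genes, or 78.7%, against 31.1% of all genes, 38.2% of dim genes and 64.5% of the 527 genes kept out by the sa limit alone. On the log2 scale it exceeded the mean of replicates 2 and 3 by a median of 0.35 in the members, 0.20 in those 527 genes and 0.01 in dim genes. The summed intensity of 11 testis sheath muscle markers was also highest in sa replicate 1, at 5698 against 3690 and 3852, and that of 13 post-meiotic cup and comet genes was 16236 against 13224 and 13043; their part in the result was not tested. Without replicate 1, 18 members were called higher in sa than in aly and 0 lower. The median difference was then 0.54, beside -0.09 in all genes and -0.13 in dim genes. The mean of the other sa arrays exceeded the aly mean in 82 members, against 4986 of all 11982 genes and 717 of the 3162 dim genes. In 69 members both remaining sa arrays lay above all 3 aly arrays, which is easier to meet with fewer sa arrays. No share of all genes is given for the 18 or the 69, so nothing is read from these counts.

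The scaling of the arrays also moved the number of members called. When each array was centred on the median of all genes, which moved the all-gene median of sa minus aly from -0.10 to -0.58, 3 members were called higher and 3 lower. The median of the members with this centring was 0.19. The distance between the medians of members and dim genes was 0.80 on both scales. Centring shifts all genes of an array alike and cannot change that distance, so nothing is read from it. With quantile normalization the median of the members was 0.55 and the distance 0.60, and 21 members were called higher and 0 lower. A pseudocount of 64 left 0 called, but with sa means held at 100 or less few members could reach a fold of 2 with it. The shares of all genes called in these settings are not given here. The counts therefore cannot show whether members differed from other genes in them. The direction for the group as a median was thus positive under each scaling tried, while its calls were relative to the scale.

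Among yw replicates, the members followed the arrays with exceptions. Replicate 2 was the dimmest yw array for 68 of the 94 genes, as it was for 72.2% of the 3695 genes at 500 or more in yw. The coefficient of variation over the 3 yw arrays had a median of 16.6%, against 13.2% for those 3695 genes, and exceeded 30% in 12 members. CG31677 was the steadiest, at 896, 882 and 890 (0.776%), followed by CG9592 at 1211, 1199 and 1254 (2.36%).

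CG31817 was the most variable, at 261, 1497 and 527 in yw (85.4%), and CG30110 the next, at 235, 880 and 655 (55.6%). Both were brightest in the replicate that was dimmest for most genes. So were 9 others, among them CG18368 at 458, 1594 and 1064, CG33125 at 843, 2467 and 1493, and CG13337 at 980, 1600 and 1412. In yw replicate 2 the summed intensity of 16 accessory gland markers was 94089, against 24969 and 16556 in replicates 1 and 3, and that of 9 markers of seminal vesicle and ejaculatory duct or bulb 25829, against 7439 and 3777. The same marker sums reached 126464 and 34447 in bam replicate 1, where CG31817 read 28.8, CG30110 16.6, CG18368 22.2 and CG33125 26.2. The part of these tissues in the yw values was not tested.

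**Figure D4:**
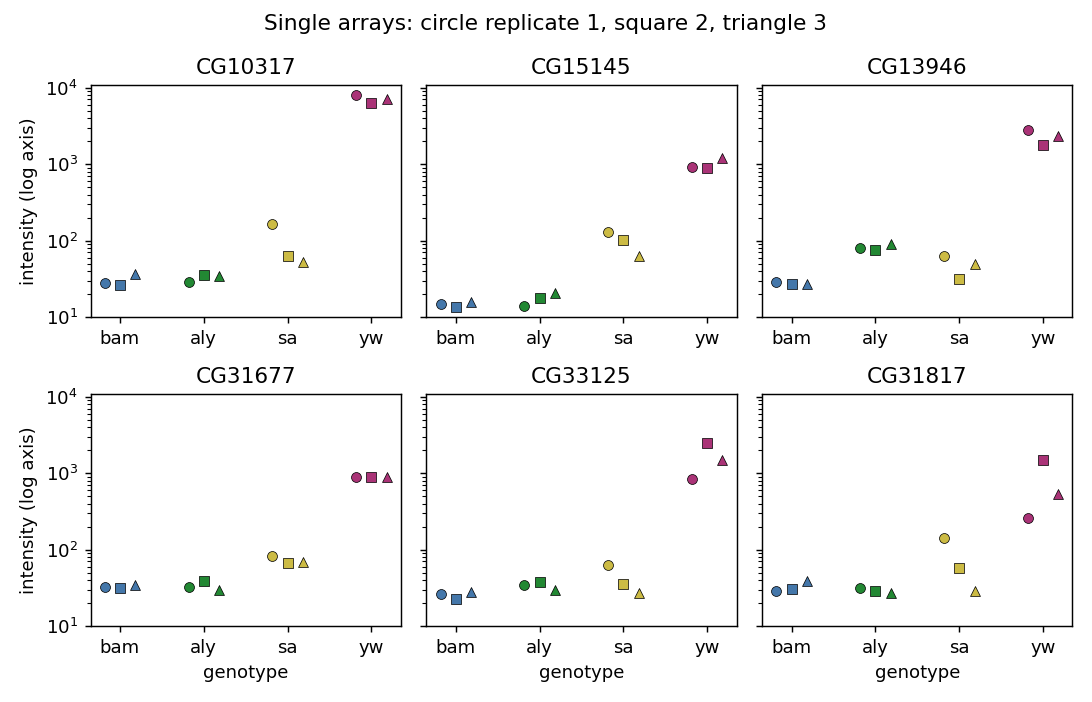
Intensity on a log axis in each single array for 6 members, by genotype, with a circle, square and triangle for replicates 1, 2 and 3. CG10317 is the brightest in yw, CG15145 has the largest difference sa minus aly, CG13946 the largest in the other direction, CG31677 the steadiest yw arrays, and CG33125 and CG31817 are brightest in yw replicate 2.

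The probe sets bear on how firmly single genes can be read. Of the 94 genes, 86 had 1 probe set. The other 8 had 10 further probe sets, of which 1 met the same limits: the second probe set of CG15059 read 871, 485 and 846 in yw and had a sa mean of 72.2 ± 14.2 (SD, n = 3). The other 9 did not, and all of them fell short in yw. CG11227 reached a yw mean of 409 ± 139 on its second probe set, CG13675 277 ± 95.1 and CG15145 197 ± 61.1 (SD, n = 3). The second probe set of CG15145 had means of 32.7 in aly and 32.6 in sa, so the sa minus aly difference of this gene rests on 1 of its 2 probe sets. For CG42841 the second probe set stood at 18.6 ± 1.29 in yw, near the floor of the array, and the bright one may read a different transcript. CG13679 was read by a probe set of a type known to cross-hybridise, and its other probe sets had yw means of only 36.5 and 25.5. The remaining probe sets that fell short, of CG34245, CG43691 and CG15059, had yw means of 35.7, 69.4 and 47.0.

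The 94 genes were unevenly spread over the chromosome arms. Arm 2L held 31 of them, or 33.0%, compared with 18.5% of all measured CG genes and 22.2% of the CG genes at 500 or more in yw. The X held 5 (CG11227, CG14635, CG32811, CG8958 and CG15059), or 5.32%, compared with 17.1% and 15.6%. Arms 2R, 3L and 3R held 17, 22 and 19, or 18.1, 23.4 and 20.2%. Of the 33 genes with another symbol within the same limits, 13 lay on 2L and 1 on the X. These shares are descriptions, with no test.

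**Figure D5:**
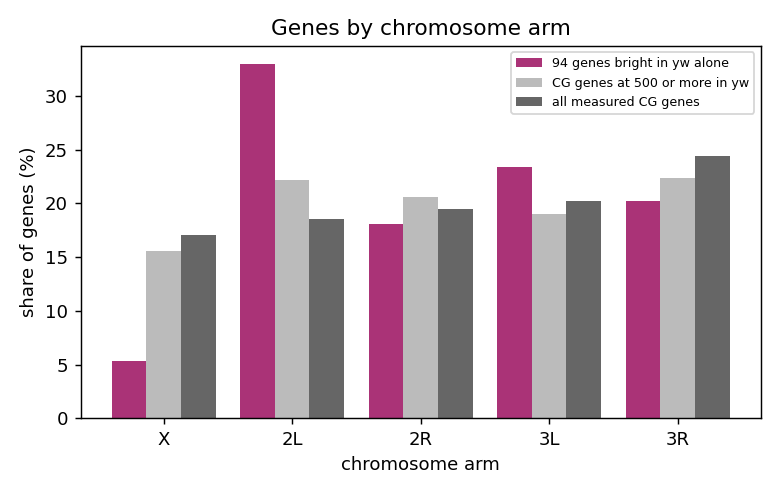
Share of genes on each major chromosome arm for the 94 genes, for CG genes at 500 or more in yw and for all measured CG genes. Arm 2L holds 33.0% of the 94 genes and the X 5.32%, against 22.2 and 15.6% of the CG genes at 500 or more in yw.

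The members were short genes, as were other CG genes bright in yw. The median gene length in the RefSeq table was 1382 bases, against 1718 for measured CG genes and 2266 for all measured genes, but it was close to the 1423 of CG genes at 500 or more in yw. Genes shorter than 1000 bases made up 40.4% of the members, against 28.9% of the CG genes at 500 or more in yw. The range was wide, from 387 bases in CG43072 to 42095 in CG34106. A single transcript was annotated for 62.8% of the members and for 56.1% of the CG genes.

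Few members lay side by side. In the order of coding genes, 2 pairs adjoined, CG32988 with CG32983 on 2L and CG13337 with CG18368 on 2R, and 10 pairs had at most 4 coding genes between them. CG32988 read 1554, 1471 and 1686 in yw, and CG32983 read 1100, 932 and 1158. The genes on their outer sides, CG32987 and CG9483, were bright in yw too, at 439 and 1793, and missed the limits for yw and for sa respectively. CG13337 and CG18368 were both dimmest in yw replicate 1 and brightest in yw replicate 2. Both fell within sa from replicate 1 as the highest array, at 156 and 127, to 36.0 and 43.8 as the lowest. All 11 members brightest in yw replicate 2 were dimmest in yw replicate 1 and highest in sa replicate 1, so this order is not particular to the pair.

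The genes next to a member were also read. Of 160 measured neighbours that were not members, 49 were called higher in yw than in sa (30.6%, beside 12.9% of all genes) and 17 lower (10.6%, beside 23.9%). In yw minus aly, 54 were called higher (33.8%, beside 15.0%) and 24 lower (15.0%, beside 28.3%). CG13946 lay between CG12506, with means of 324 in aly, 77.1 in sa and 3649 in yw, and CG13947, with 428, 125 and 3834. Both neighbours thus shared with CG13946 a higher mean in aly than in sa, and the 3 sat on the same stretch of 2L. CG2772, another member whose aly mean exceeded its sa mean, lay beside CG31952, with 118 in aly, 62.4 in sa and 2144 in yw. These neighbour pairs were picked out after their values were seen.

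The 33 genes with another symbol within the same limits, called characterised here, also include noncoding RNAs known by a number, lncRNA:CR40465 and lncRNA:CR43097. Acyp, an acylphosphatase, read 5459, 4020 and 4939 in yw and had the highest yw mean of them, 4806. Hsc70-1, a heat shock cognate chaperone of the Hsp70 family, had a yw mean of 3863, and Vha36-2, a subunit of the vacuolar proton pump, 3442. COX6AL2, a relative of a cytochrome c oxidase subunit, reached 3102 and t-cup, transcribed after meiosis, 3039. Parp16, of the poly(ADP-ribose) polymerase family, followed at 2700, robl37BC, a roadblock-type dynein light chain, at 2539, lobo at 2068, Adgf-E, of the adenosine deaminase family, at 1895, and Mst36Fa, a male-specific transcript, at 1609.

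On the deposited scale, 9 of these 33 genes were called higher in sa than in aly and 0 lower, beside the same 11.9 and 7.90% of all genes. The same limits on aly and sa chose them, so these counts are a description and lend no support to those of the members. Their calls under other scalings are not given here. Acyp read 34.4, 42.5 and 33.7 in aly and 142, 60.2 and 83.2 in sa. Parp16 read 35.4, 33.0 and 22.4 in aly and 85.3, 66.2 and 102 in sa, with no overlap. No common function of these genes was tested.

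Known late spermatogenesis genes were mostly higher in yw than in sa and aly and were not chosen for low values in sa, as the 94 were. Over the pathway lists without ribosomal proteins, 83 genes were measured. They include 9 tMAC and 5 testis TAF genes, which are regulators in spermatocytes and not late genes. In total, 45 were called higher and 11 lower in yw minus sa, and 46 and 16 in yw minus aly. In yw minus bam the counts were 62 and 7, where 18.5% of all genes were called higher and 34.2% lower. The lower calls hold 6 tMAC and 3 testis TAF genes in yw minus sa, and 8 and 5 in yw minus aly. The higher calls hold 1 of each in yw minus sa and 0 in yw minus aly. Of the 83, 3 met the limits that define the members: t-cup, Mst36Fa and the Y-linked ARY, at 545 in yw and 99.5 in sa.

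Among 13 measured cup and comet genes, a group known for transcription in elongating spermatids, 11 were called higher in yw than in sa and 10 in yw than in aly. All 13 were called higher in yw than in bam, and 0 were called lower in any of these comparisons. The median yw minus sa difference of this list was 2.16, beside -0.08 over all genes. t-cup had a sa mean of 35.5 and was the darkest of these 13 there. w-cup read 1424, 539 and 231 in sa against a yw mean of 9387, and its sa arrays also ran highest in replicate 1. sunz, a comet gene, read 203, 149 and 174 in sa and 2226 in yw, and schuy 891, 642 and 538 against 6256. Some genes of this list were not confined to yw. m-cup had means of 5202 in aly, 3721 in sa and 5269 in yw, and soti 926, 962 and 1540. hale stood at 4191 in aly, 1848 in sa and 4582 in yw. m-cup, soti and hale were named after their values were seen.

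Of 8 genes of sperm chromatin proteins, which replace histones in sperm nuclei, 7 were called higher in yw in each of the 3 comparisons. ProtB, a protamine, had means of 20.1 in bam, 22.2 in aly, 140 in sa and 2779 in yw, and missed the limits that define the members by its sa mean alone. Its sa arrays read 208, 107 and 107. Mst33A had a mean of 34.1 in aly, 1039 in sa and 9738 in yw. The other protamine, ProtA, had 389, 672 and 6481, and Tpl94D, a transition protein, 246, 601 and 5357.

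Of 9 Mst sperm-tail genes, 4 were called higher in yw than in sa and 8 in yw than in bam. Mst84Dd, Mst84Db and Mst98Ca read 2183, 6631 and 8091 as sa means, against 9121, 14867 and 17576 in yw. Of 6 don juan, janus and other sperm genes, 4 were called higher in yw than in sa, with janB at 1304 in sa and 10478 in yw, djl at 576 and 3347, dj at 114 and 550, and fzo, a mitofusin, at 426 and 1252. Of 5 S-Lap leucyl aminopeptidases, abundant sperm proteins, 2 were called higher in yw than in sa, S-Lap8 and S-Lap2. S-Lap8 had means of 3917 in sa and 13699 in yw.

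Of 7 Y-linked fertility genes, 6 were called higher in yw than in sa, 6 in yw than in aly and 6 in yw than in bam. Pp1-Y2, a phosphatase gene, had means of 32.4 in aly, 200 in sa and 1223 in yw. ORY stood at 15.5, 35.2 and 188, and Ppr-Y at 16.5, 18.3 and 111. Their low yw levels, not their mutant levels, kept ORY and Ppr-Y outside the limits.

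Of 15 axonemal dyneins and tektins, which build the moving core of the sperm tail, 10 were called higher in yw than in sa and 0 lower. Dnah3 had means of 111 in aly, 95.3 in sa and 1424 in yw, and missed the limits by its aly mean. Dhc36C stood at 157 in sa and 1063 in yw, Dic61B at 155 and 872, and Tektin-A at 1461 and 5278. Of 10 individualization genes, 1 was called higher and 2 lower in yw minus sa. The higher was klhl10, part of a ubiquitin ligase of spermatids, at 160 in sa and 1317 in yw. The lower were Dronc, an initiator caspase, at 1344 and 380, and Dark, its activator, at 328 and 129.

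The genes of the complexes missing in the arrest mutants were mostly lower in yw on the deposited scale. Of 9 tMAC genes, 6 were called lower in yw than in sa and 8 lower in yw than in aly. The gene topi was called higher in yw than in sa, at 1255 against 575. tomb fell from 1218 in sa to 308 in yw, comr from 514 to 135, Caf1-55 from 3234 to 961 and mip40 from 3780 to 1233. Of 5 testis TAFs, 3 were called lower in yw than in sa, and sa itself, the mutated gene, was called higher. Taf12L had means of 9246 in sa and 1917 in yw, nht 2971 and 744, and mia 1108 and 386. Of 27 measured cytosolic ribosomal protein genes, 24 were called lower in yw than in sa, with RpL34a at 4981 in sa and 1583 in yw and RpL3 at 9070 and 2918. With arrays centred on these ribosomal protein genes, 0 of the 83 pathway genes were called lower in yw minus sa, where 11 were on the deposited scale.

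Markers of other tissues were read against the 12.9% of all genes called higher and 23.9% called lower in yw minus sa. Of 16 accessory gland markers, limma called 0 in yw minus sa, also 0 at an unadjusted p under 0.05, and 5 higher in yw minus aly. Their summed level ranged from 15387 to 33302 in sa and from 16556 to 94089 in yw, with Sfp53D at 45.3, 115 and 112 in sa and 120, 1028 and 83.5 in yw. Of 9 seminal vesicle and ejaculatory duct or bulb markers, 2 were called higher, Dup99B and Anp, both highest in yw replicate 2. Of 11 muscle markers 2 were called higher, Act87E and sls, and of 9 fat body markers 2, apolpp and Lsp2. Of 12 hemocyte markers 4 were called lower, with vkg, a collagen, at 1035 in sa and 413 in yw. Of 13 hub and cyst cell markers, esg was called higher, at 32.6 in sa and 144 in yw, and shg lower, at 355 and 65.1. None of these markers met the limits that define the members, and their part in the members' values was not tested.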

How the data were processed

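The authors deposited a table of linear intensities, with a column for each array and a row for each probe set. MAS5, RMA and limma appear in the submitters' processing notes without versions; which of the first pair made these intensities is not stated, so the background correction behind dim values is unknown. The deposited scale was kept. Of 18952 probe sets, 183 were controls, 13647 had 1 gene symbol, 402 several and 4720 none here, and 13544 matched RefSeq (Release 6) with 0 symbols changed. The brightest probe set by mean log2(intensity + 16) stood for each of 11982 genes, with no filter on low intensity. Arrays carry no count, so precision rests on 3 arrays per genotype.

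limma 3.58.1 (R 4.3.3) fitted a mean per genotype over the 12 arrays, with eBayes and Benjamini-Hochberg adjustment over all genes, and was tested on simulated data. Tables and plots used Python 3.11.15. The members and lists were chosen with earlier results of these data known. Genes were named by rule: the 12 brightest members in yw, the 3 highest in each mutant, the 2 steadiest and the 2 most variable in yw, 2 on each side of each limit, up to 6 called in sa minus aly per direction, adjoining members, the 10 brightest characterised genes within the limits, and up to 4 genes per list with the largest yw minus sa difference. Alternatives changed the scaling, pseudocount, probe sets, limits, model settings or threshold, or left out 1 array. After removing genotype means, same-numbered arrays correlated at -0.416 to 0.481, with 4 of 18 pairs above 0.1, so replicate numbers were not taken as pairs. Protein and promoter sequences and scanner files were not used here.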

Additional observations from a re-analysis of the deposited data

How the results depend on the processing

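The number of genes within the limits was 94, and 171 with arrays centred on ribosomal protein genes, 58 when each array had to meet its limit, 57 with a yw limit of 1000, and 85 to 107 on leaving out each array. The characterised genes rose from 33 to 61 with ribosomal protein centring. Members called higher in sa than aly numbered 33, and 21 with quantile normalization, 3 with median centring, 0 with a pseudocount of 64, 63 without a fold minimum, 32 with a replicate block and 18 to 33 on leaving out each array, with sa replicate 1 giving the 18. Members called lower numbered 0, but 3 with median centring and 4 without a fold minimum. Shares of all genes called in sa minus aly are given for the deposited scale alone, with and without the fold minimum. The sa limit leaves few members able to reach a fold of 2 with a pseudocount of 64. The choice of members fixed the sign of the yw minus mutant medians over the 94 genes, so only their size is described. With ribosomal protein centring they were 6.53, 6.10 and 5.43 for yw minus bam, aly and sa, with a pseudocount of 1 5.60, 5.39 and 4.51, and with 64 3.91, 3.84 and 3.38. Median centring gave 5.19 for bam and 4.55 for sa, and the mean of probe sets 4.83 for bam and 4.60 for aly. Ribosomal protein centring left 0, 10 and 1 list genes called lower in yw minus sa, aly and bam, against 11, 16 and 7, and no fold minimum gave 17 for sa. The causes were not tested. Values below about 100 lie near background, so differences between mutants rest on dim signal.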

Other observations

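The 11 members brightest in yw replicate 2 were CG31730, CG7551, CG33125, CG13337, CG13675, CG18368, CG10969, CG7653, CG31797, CG31817 and CG30110. In all of them sa replicate 1 was also the highest of the 3 sa arrays. The same array was the highest in 74 of the 94 members (78.7%), so no link between the 2 arrays is read from this. CG13675 differed from the others in sa, where it read 17.6, 14.3 and 14.7, and was the darkest of the 94 genes in that genotype. In yw it read 754, 1365 and 1231, and its second probe set read 168, 346 and 315, with the same array lowest and the same array highest.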
